A study of Mus musculus with 2 samples.

Results

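Secreted growth factors are small proteins that a cell releases, or sheds from its surface, to act on receptors of neighbouring cells. A set of 10 genes of this kind were followed here on 1 array of eosinophils and 1 array of dendritic cells: the EGF receptor ligands Areg, Hbegf and Tgfa, the vessel and mesenchyme factors Vegfa, Pdgfb and Igf1, the colony stimulating factor Csf1, the IL-6 family cytokines Osm and Lif, and the lymphocyte attractant Il16. Members were all probe sets whose single gene in the platform annotation, with symbols updated, was one of these 10 genes. This gave 20 probe sets of 8 genes, out of 22626 probe sets that are not array controls. Areg and Osm had no probe set named for them in the annotation used, so no value is given for either.

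Per the labels, both populations were unstimulated and came from C57BL/6 mice aged 8 weeks, out of the lamina propria of the small intestine. Eosinophils were sorted as CD11b+, CD11c intermediate, MHCII-, SiglecF+ cells, and dendritic cells as CD11c+MHCII+ cells. The study set out to compare the expression profiles of these resident cells. The number of mice behind each sort is not stated in the labels. A value on such an array rises with the RNA of a transcript per unit of sample RNA, so fewer expressing cells and less RNA per cell cannot be told apart.

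In the gut wall, EGF receptor ligands are made as membrane precursors, are released by ADAM proteases and act mainly on epithelium. VEGF and PDGF factors act on endothelium and on mesenchymal cells, and IGF-1 acts through a receptor tyrosine kinase on many tissues. CSF1 maintains macrophages through its receptor Csf1r, LIF and oncostatin M signal through the shared chain Il6st, and IL-16 is cut from a long precursor and binds CD4.

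The signals were linear MAS5 intensities, given here as units. A floor of 134.7 units, the median of all signals on both arrays, was applied before log2, and a ratio with 1 side under it is a lower bound, written "at least". A probe set under the floor on both arrays was taken as not measured. The 95th percentile of a list of genes of other tissues was 208.9 units, so a signal below that may be background. Not every gene of that list was dim: Mbp gave 2062 units in eosinophils against 2523 units in dendritic cells. With 1 array per population no test was possible, and the only spread was that between probe sets of one gene, whose pooled SD, in log2 units, was 0.73. A difference of 4-fold or more was counted, and a lower bound short of 4-fold does not show that the true ratio is smaller. The marker check followed the labels: 5 of 7 eosinophil markers, among them Siglecf and Ccr3, passed 4-fold towards eosinophils, and 6 of 9 dendritic cell markers on the array, among them Itgae and Irf8, passed it towards dendritic cells, with none of either list past it the other way. The granule gene Prg2 was under the floor on both arrays.

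The stretches before the transcription starts of Csf1, Vegfa and Lif are shown because Csf1 stood highest in eosinophils over dendritic cells among the members, and Vegfa and Lif were the members brighter in dendritic cells. Each is the 250 bases before the start, 5′ to 3′ on the gene's strand, from RefSeq on build GRCm38.p6. Such stretches were available for 7 of the 10 genes. The values themselves name no build. Capitals mark matches, on either strand, to 6 motifs named in the sentences after the stretches, with their letters except for the NF-kB consensus.
Csf1, chr3:107760470-107760719, minus strand: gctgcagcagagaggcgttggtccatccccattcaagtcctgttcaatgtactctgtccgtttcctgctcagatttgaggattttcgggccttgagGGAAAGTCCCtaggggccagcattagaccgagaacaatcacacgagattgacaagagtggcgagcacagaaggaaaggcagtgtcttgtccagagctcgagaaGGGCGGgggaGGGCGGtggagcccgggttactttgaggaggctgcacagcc
Vegfa, chr17:46032378-46032627, minus strand: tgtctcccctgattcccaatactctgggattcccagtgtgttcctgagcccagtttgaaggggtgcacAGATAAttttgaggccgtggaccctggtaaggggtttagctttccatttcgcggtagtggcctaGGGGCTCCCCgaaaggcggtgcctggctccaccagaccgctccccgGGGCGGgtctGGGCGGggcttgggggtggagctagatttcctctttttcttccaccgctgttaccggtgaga
Lif, chr11:4257318-4257567, plus strand: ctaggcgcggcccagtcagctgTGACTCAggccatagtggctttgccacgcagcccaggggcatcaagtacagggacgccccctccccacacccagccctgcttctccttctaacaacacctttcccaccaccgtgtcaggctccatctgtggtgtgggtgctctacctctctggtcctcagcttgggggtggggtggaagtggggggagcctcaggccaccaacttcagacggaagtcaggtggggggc

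The Csf1 stretch held a match to the NF-kB consensus 154 bases before the start, a motif found in 3.90% of the 32851 stretches of this length in the table. It also held 2 GC boxes (GGGCGG), 51 and 41 bases before the start, against 32.7% of all stretches with at least 1. The Vegfa stretch held 2 GC boxes as well, an NF-kB match 118 bases before the start and a GATA match (AGATAA) 182 bases before it, the last found in 9.99% of all stretches. The Lif stretch held an AP-1 match (TGANTCA) 228 bases before the start, found in 6.75% of all stretches. The TATA box (TATAAA, in 12.4% of all stretches) and the core of the hypoxia response element (ACGTG, in 16.6%) had no match in these 3 stretches. The stretch before a second Vegfa start, not shown, held a hypoxia response match 211 bases before that start. That start lies inside the gene, at base 46025163 against an outer start at 46032377. None of the matches shown overlapped another. Il16 had 3 starts in the table and Vegfa a second one, and the probe sets do not tell which start was in use. AP-1 was not particular to Lif: in stretches not shown, matches lay 18 bases before an Il16 start and 37 bases before the Igf1 start. Another Il16 start had NF-kB matches 49 and 48 bases before it. A match describes the letters of the stretch and is not a measured binding site.

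Csf1, Il16 and Hbegf were brighter in eosinophils, apart from 1 of the 4 Csf1 probe sets, and Vegfa and Lif were brighter in dendritic cells but close to the floor. Of the 20 probe sets, 13 were measured, 3 on both arrays, 6 in eosinophils only and 4 in dendritic cells only. At least 4-fold brighter in eosinophils were 2 of the 13, 1 each of Csf1 and Il16, where 4.8% of the 13779 probe sets measured on the whole array were. None of the 13 was 4-fold brighter in dendritic cells, against 5.1% of the whole array. At 2-fold the counts were 5 in eosinophils and 1 in dendritic cells, against 18.5% and 15.3% of the whole array. The median log2 difference was 0.67 over the 13 probe sets and 0.14 over all measured probe sets.

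**Figure D1:**
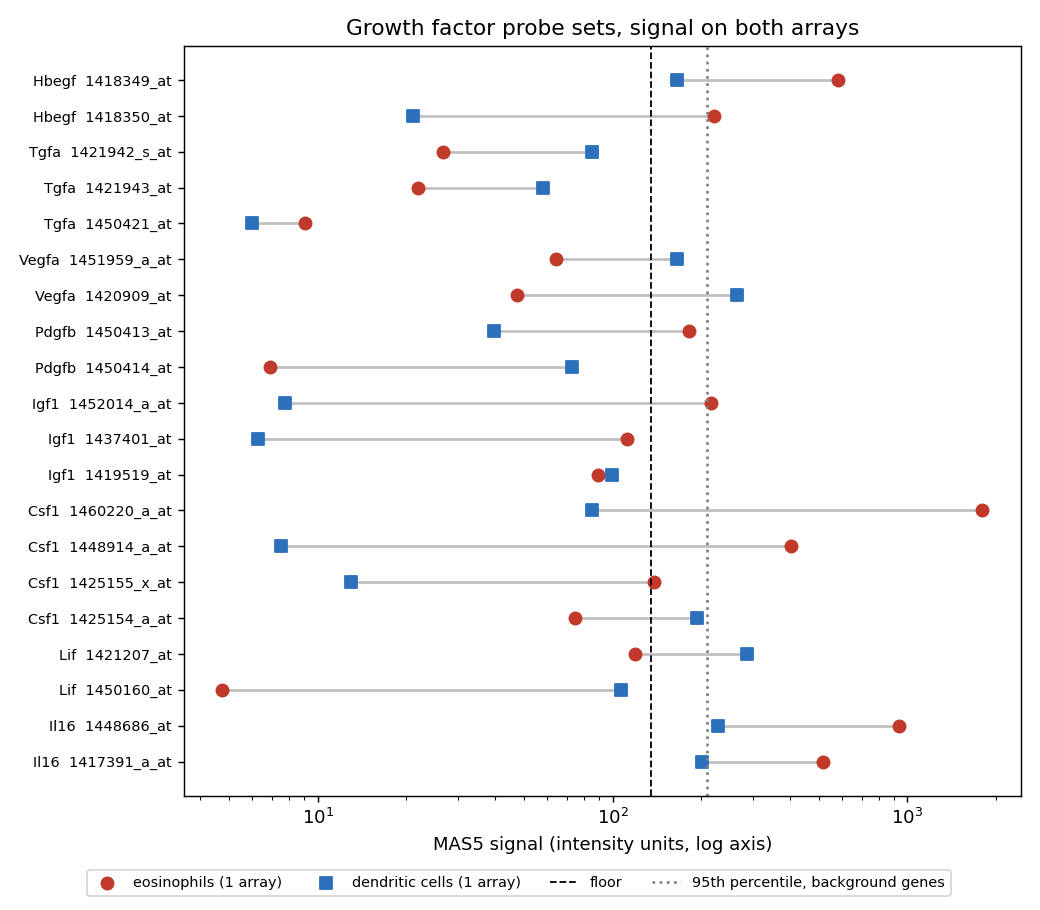
Signal of each of the 20 probe sets (MAS5 intensity units, log axis) in eosinophils (circles) and dendritic cells (squares), 1 array each. The dashed line is the floor of 134.7 units and the dotted line the 95th percentile of background genes, 208.9 units. Both eosinophil signals of Il16 and of Hbegf and 2 of the 4 of Csf1 (up to 1798 units) lie to the right of both lines, and all 3 Tgfa probe sets lie under the floor on both arrays.

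Among EGF receptor ligands, Hbegf carried a signal above the background mark in eosinophils. Hbegf encodes heparin-binding EGF-like growth factor, a membrane-anchored ligand that is shed. Its probe set 1418349_at gave 580 units in eosinophils against 166 units in dendritic cells, a log2 difference of 1.81 or 3.50-fold. Its probe set 1418350_at gave 220 units in eosinophils against 21.1 units in dendritic cells, at least 1.63-fold. Both probe sets therefore pointed to eosinophils, and both dendritic cell signals lay under 208.9 units. Tgfa, which encodes transforming growth factor alpha, was not measured on either array: its 3 probe sets gave 9.06 to 26.6 units in eosinophils and 5.98 to 85.1 units in dendritic cells. Of the other EGF family ligands, 5 of 7 were on the array and only Ereg, the gene of epiregulin, reached the floor, with 35.6 units in eosinophils against 136 units in dendritic cells.

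Vegfa, the main growth factor of blood vessels, was above the floor in dendritic cells only. Probe set 1420909_at gave 47.3 units in eosinophils against 264 units in dendritic cells, at least 1.96-fold brighter in dendritic cells. Probe set 1451959_a_at gave 64.2 units in eosinophils against 165 units in dendritic cells, at least 1.22-fold brighter in dendritic cells. The probe sets shared a direction, and of the 4 signals only the 264 units of dendritic cells exceeded the background mark. Pdgfb, the B chain of platelet-derived growth factor, gave 182 units in eosinophils against 39.7 units in dendritic cells with 1450413_at, at least 1.35-fold. Its other probe set, 1450414_at, stayed under the floor everywhere, with 6.89 units in eosinophils against 73.1 units in dendritic cells. All 4 Pdgfb signals lay under the background mark.

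The relatives of these factors included the one 4-fold difference among ligands of the PDGF and VEGF family. Of 7 genes, 4 were measured, 1 passed 4-fold on the dendritic cell side and 0 on the eosinophil side, where 5.35% of the 7994 genes measured on the whole array passed in each direction. That gene was Pdgfa, the A chain, with 110 units in eosinophils against 807 units in dendritic cells, at least 5.99-fold brighter in dendritic cells, although its second probe set differed by 0.62 the other way on the log2 scale. Pgf, placental growth factor, gave 14.2 units in eosinophils against 429 units in dendritic cells, at least 3.18-fold brighter in dendritic cells. Vegfd was at least 2.04-fold brighter in eosinophils, with 275 units in eosinophils against 127 units in dendritic cells. Pdgfc reached 68.7 units in eosinophils against 172 units in dendritic cells.

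Igf1, insulin-like growth factor 1, was measured by 1 of its 3 probe sets. Probe set 1452014_a_at gave 215 units in eosinophils against 7.76 units in dendritic cells, at least 1.60-fold. Probe set 1437401_at gave 112 units in eosinophils against 6.29 units in dendritic cells, and 1419519_at gave 88.9 units in eosinophils against 99.5 units in dendritic cells, all under the floor. Only the 215 units of eosinophils exceeded the background mark, by a small margin. Of 8 IGF carrier genes, 2 were measured, Igfbp4 (323 units in eosinophils, 185 units in dendritic cells) and Igfbp5 (155 units in eosinophils, 41.5 units in dendritic cells), and neither was counted at 4-fold; Igfbp4 turned towards dendritic cells (-0.23) with centring on spike controls.

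Csf1, the growth factor of macrophages, differed most among the members, but its 4 probe sets disagreed. Probe set 1460220_a_at gave 1798 units in eosinophils against 84.9 units in dendritic cells, at least 13.3-fold, a log2 difference of at least 3.74. Probe set 1448914_a_at gave 403 units in eosinophils against 7.52 units in dendritic cells, at least 2.99-fold. These are the Csf1 signals above the background mark, and both are on the eosinophil array.

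The other Csf1 probe sets were dim on both arrays. Probe set 1425155_x_at, a type that can bind related sequences, gave 138 units in eosinophils against 13.0 units in dendritic cells, at least 1.03-fold. Probe set 1425154_a_at gave 74.7 units in eosinophils against 193 units in dendritic cells, at least 1.43-fold brighter in dendritic cells. The log2 differences of the 4 probe sets ran from -0.52 to 3.74, and each is a lower bound. The pooled SD of 0.73 came from probe sets measured on each array, so it does not gauge this range. Taking the mean log2 signal of all 4 gave a log2 difference of 1.13, short of 4-fold. Csf1 is spliced into secreted and membrane-bound forms, and which form each probe set reads was not tested.

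**Figure D2:**
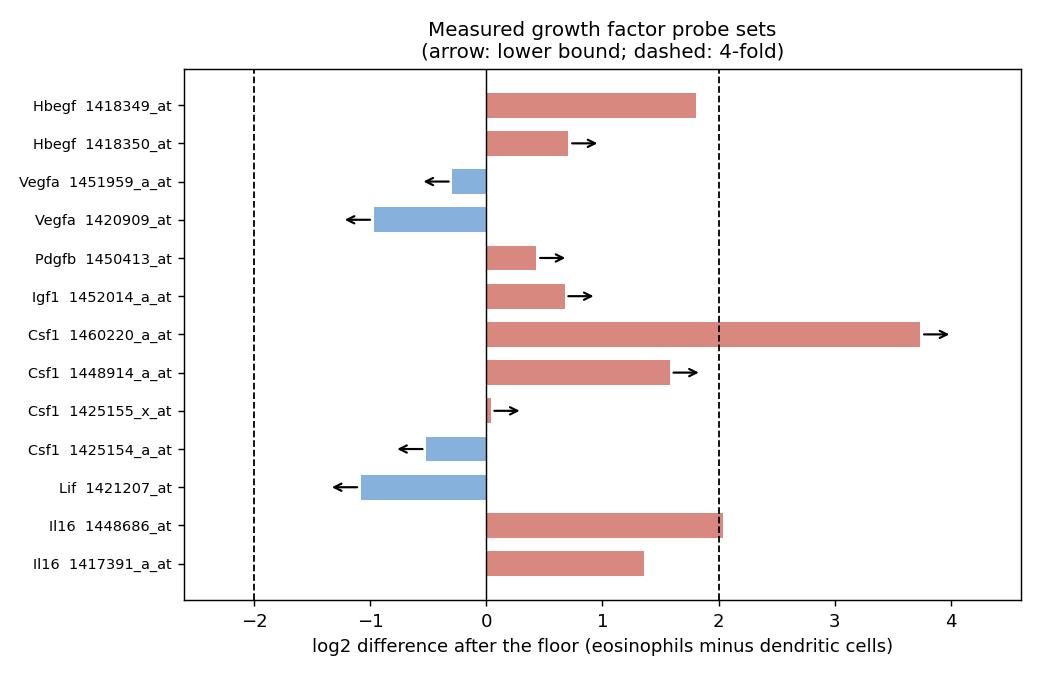
Log2 difference after the floor, eosinophils minus dendritic cells, of the 13 measured probe sets; bars to the right are brighter in eosinophils, arrows mark lower bounds and dashed lines mark 4-fold. Csf1 1460220_a_at (3.74) and Il16 1448686_at (2.04) pass the line on the right, and none passes it on the left.

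Among the other colony stimulating factors, Csf2 and Csf3 were above the floor in eosinophils only. Csf2, the gene of GM-CSF, gave 533 units in eosinophils against 4.96 units in dendritic cells, at least 3.95-fold. Csf3, the gene of G-CSF, gave 148 units in eosinophils against 14.7 units in dendritic cells, close to the floor. Il34, the second ligand of Csf1r, was under the floor everywhere, with 5.60 units in eosinophils against 47.5 units in dendritic cells. In this list of 5 genes, which also holds Igf2 and Il3, 2 were measured, and neither bound reached 4-fold.

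Lif, leukaemia inhibitory factor, was above the floor in dendritic cells only. Probe set 1421207_at gave 119 units in eosinophils against 285 units in dendritic cells, at least 2.12-fold brighter in dendritic cells. Probe set 1450160_at gave 4.75 units in eosinophils against 107 units in dendritic cells, both under the floor. Among its relatives, Clcf1, a cytokine that also signals through Il6st, gave 430 units in eosinophils against 220 units in dendritic cells, 1.95-fold, but the log2 difference became -0.076 when the arrays were centred on their spike controls. Ctf1, cardiotrophin 1, gave 177 units in eosinophils against 77.5 units in dendritic cells, while Il6 and Il11 were under the floor on both arrays. Of the 6 genes in this list, 4 were on the array, 2 were measured and none was counted at 4-fold.

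Il16 was the member measured on both arrays by every probe set. Probe set 1448686_at gave 938 units in eosinophils against 228 units in dendritic cells, a log2 difference of 2.04 or 4.12-fold. Probe set 1417391_a_at gave 517 units in eosinophils against 202 units in dendritic cells, a log2 difference of 1.36 or 2.57-fold. Both pointed to eosinophils and differed from each other by less than the pooled SD, and the 202 units of dendritic cells lay under the background mark. The 4-fold count of Il16 was narrow: with housekeeping centring its log2 difference was 1.98, and with centring on spike controls 1.002. Cd4, the receptor of IL-16, was under the floor everywhere, with 8.25 units in eosinophils against 25.8 units in dendritic cells.

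With 1 probe set per gene, the one of highest mean log2 signal, 6 of the 8 genes were measured, since the chosen Igf1 probe set and all those of Tgfa lay under the floor. Of the 6 genes, 4 were brighter in eosinophils and 2 in dendritic cells, and 2, Csf1 and Il16, passed 4-fold towards eosinophils. The share over all 7994 measured genes was 5.35%. The median log2 difference was 1.12 over the 6 genes and 0.16 over all measured genes. Nearest to Csf1 in the plane of both log2 signals, over 2 arrays, were Adgre4 (1805 units in eosinophils, 67.5 units in dendritic cells) and Ikzf4 (1702 units in eosinophils, 110 units in dendritic cells), at distances of 0.33 and 0.39, with 6 genes within 0.5. Nearest to Il16 were Czib and Zfp280d, at 0.034 and 0.041, with 106 genes within 0.5.

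Among receptors of these factors and related receptor chains, Pdgfra was brighter in eosinophils and Il6st in dendritic cells. Of 18 genes, 11 were measured, 1 passed 4-fold on each side, and their median log2 difference was 0.22, where 5.35% of all measured genes passed in each direction and their median was 0.16. Pdgfra, a receptor of platelet-derived growth factors, gave 789 units in eosinophils against 54.8 units in dendritic cells, at least 5.86-fold. Its other probe set was under the floor on both arrays. Il6st, the chain shared by LIF and oncostatin M, gave 85.3 units in eosinophils against 936 units in dendritic cells, at least 6.95-fold brighter in dendritic cells, although its probe sets spanned log2 differences of -2.80 to 0.78. By the probe set standing for each gene, Pdgfra was on the eosinophil side, and Pdgfa, Il6st and Lif were on the dendritic cell side. Other probe sets of Pdgfa and Il6st went the other way, and the Lif signals were close to the floor.

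The receptor of CSF1 was measured on both arrays. Csf1r gave 763 units in eosinophils against 1121 units in dendritic cells, 1.47-fold brighter in dendritic cells. Its measured probe sets spanned log2 differences of -0.56 to -0.015. Cd9, a tetraspanin that binds the HB-EGF precursor and has been described as a receptor of IL-16, gave 6295 units in eosinophils against 1616 units in dendritic cells, 3.89-fold. Erbb3, a receptor of the neuregulins, gave 414 units in eosinophils against 128 units in dendritic cells, at least 3.07-fold. Egfr, the receptor of HB-EGF and TGF alpha, was under the floor with 121 units in eosinophils against 90.9 units in dendritic cells, as were Erbb4 and the VEGF receptor gene Kdr. Flt1, another VEGF receptor, gave 127 units in eosinophils against 222 units in dendritic cells, at least 1.65-fold brighter in dendritic cells.

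Genes that release or mature the factors included members brighter in eosinophils. Of 16 genes, 11 were measured, 2 passed 4-fold, both towards eosinophils, and their median log2 difference was 0.37, against 5.35% and a median of 0.16 over all measured genes. Adam10, a sheddase of several membrane ligands, gave 3808 units in eosinophils against 796 units in dendritic cells, 4.78-fold, with its 2 measured probe sets on that side (1.56 and 2.26 on the log2 scale). Adam19 gave 5664 units in eosinophils against 1309 units in dendritic cells, 4.33-fold, and its 2 probe sets agreed closely (2.08 and 2.11). Both 4-fold counts were narrow. Centring on array medians lowers these log2 differences by 0.28 and centring on spike controls by 1.04. On either scale both Adam10 and Adam19 fall short of 4-fold.

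Furin and the main sheddase of the EGF receptor ligands went opposite ways. Furin, the protease that matures many precursors, gave 27754 units in eosinophils against 7714 units in dendritic cells, 3.60-fold. Adam17, which releases HB-EGF and TGF alpha, gave 278 units in eosinophils against 760 units in dendritic cells, 2.74-fold brighter in dendritic cells, but another of its probe sets differed by 0.98 towards eosinophils. Rhbdf1, an inactive rhomboid that carries ADAM17 to the surface, gave 125 units in eosinophils against 369 units in dendritic cells, at least 2.74-fold brighter in dendritic cells.

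**Figure D3:**
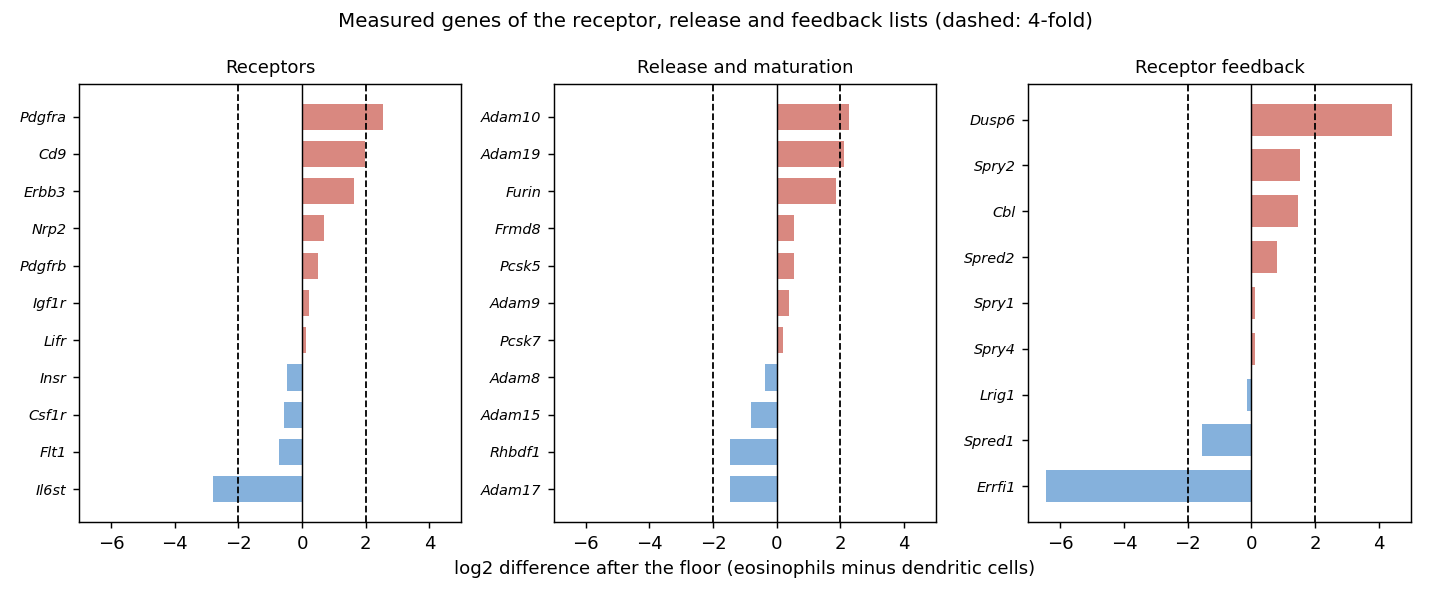
Log2 difference after the floor, eosinophils minus dendritic cells, of the measured genes for receptors, release and maturation, and receptor feedback, with 1 probe set per gene and dashed lines at 4-fold. Past the line on the right are Pdgfra, Adam10, Adam19 and Dusp6 (4.43), and on the left Il6st and Errfi1 (-6.45); for Il6st and Errfi1 other probe sets of the same gene differed. Centred on spike controls, Nrp2, Lifr, Adam9, Frmd8, Pcsk7 and Spred2 turn to the left, and Adam10 and Adam19 fall short of the 4-fold line. Igf1r, Pdgfrb, Spry1 and Spry4 are no longer measured on that scale.

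Among genes that dampen growth factor receptors or their signals, Dusp6 was brighter in eosinophils and 1 of the 2 Errfi1 probe sets was far brighter in dendritic cells. Of 13 genes, 9 were measured, with 1 at least 4-fold apart in each direction and a median log2 difference of 0.13, against 5.35% in each direction and a median of 0.16 over all measured genes. Dusp6, a phosphatase that inactivates ERK, gave 3594 units in eosinophils against 167 units in dendritic cells, 21.5-fold, and the dendritic cell signal lay under the background mark. Errfi1, an inhibitor of EGF receptor kinase activity, gave 79.5 units in eosinophils against 11773 units in dendritic cells, at least 87.4-fold brighter in dendritic cells, whereas its second probe set differed by -0.41 on the log2 scale. Spry2 gave 394 units in eosinophils against 136 units in dendritic cells, a dendritic cell signal under the background mark, so its 2.89-fold may be a lower bound. Cbl was 2.78-fold brighter in eosinophils, while Spred1 was 2.93-fold brighter in dendritic cells. Other probe sets of both genes differed less, with log2 differences spanning 0.21 to 1.47 for Cbl and -1.55 to -0.42 for Spred1.

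Of 13 other tissue growth factor genes, 10 were on the array and 5 were measured, none of them counted at 4-fold. Grn, the gene of progranulin, gave 2146 units in eosinophils against 3963 units in dendritic cells, 1.85-fold brighter in dendritic cells. Bdnf, Fgf1, Fgf7 and Hgf were above the floor in eosinophils only, with 145 to 180 units, all under the background mark.

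Some markers of other cells were above the floor on each array. Of 11 epithelial markers on the array, 5 were above the floor in eosinophils and 4 in dendritic cells, with summed signals of 2541 units in eosinophils against 1298 units in dendritic cells. Krt18 (870 units in eosinophils, 60.7 units in dendritic cells) and Cdh17 (577 units in eosinophils, 46.5 units in dendritic cells) passed 4-fold towards eosinophils, while Krt8, Vil1 and Cdh1 were under the floor on both arrays. Of 7 stromal markers, 4 were above the floor in eosinophils and 2 in dendritic cells, with summed signals of 1787 units in eosinophils against 626 units in dendritic cells, and Dcn and Col1a2 were under the floor on both. Pdgfra, described above among the receptors, is one of these stromal markers and supplied 789 units in eosinophils against 54.8 units in dendritic cells, and Acta2 gave 364 units in eosinophils against 144 units in dendritic cells, 2.54-fold. Of 6 endothelial markers, 2 were above the floor in eosinophils and 1 in dendritic cells (942 units in eosinophils against 420 units in dendritic cells in sum), with Tie1, Emcn and Kdr under the floor on both. Pecam1 was the endothelial marker past 4-fold, with 647 units in eosinophils against 55.8 units in dendritic cells, at least 4.80-fold. Of 10 macrophage markers, 4 were above the floor on each array, with sums of 2433 units in eosinophils against 4553 units in dendritic cells. T cell markers were above the floor for 2 of 5 genes on each array, with sums of 621 units in eosinophils against 4524 units in dendritic cells, of which Cd8a gave 3732 units. Cd3e gave 336 units in eosinophils against 557 units in dendritic cells, and Cd3d, Cd3g and Cd2 were under the floor on both arrays. For type 2 innate lymphoid cells it was 2 of 5 on each array (620 units in eosinophils, 830 units in dendritic cells), and for B and plasma cells 1 of 5, Xbp1, on each array (3067 units in eosinophils, 1123 units in dendritic cells). For mast cells it was 0 of 7 in eosinophils and 1 in dendritic cells (428 units in eosinophils, 693 units in dendritic cells), and for neutrophils 3 of 7 in eosinophils and 1 in dendritic cells (1142 units in eosinophils, 420 units in dendritic cells). Of the neutrophil sum, Cxcr2 gave 570 units in eosinophils against 4.48 units in dendritic cells, at least 4.23-fold. The part of such cells in the growth factor signals was not tested.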

How the data were processed

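One 3' expression array was made for each population from Trizol-extracted total RNA with a commercial biotin labelling system, per the labels' protocols. Each probe set has 1 deposited signal intensity per array on a linear scale, which the authors made with MAS5 5.0, per the submitters' processing notes. Without the lowest and highest 2% of signals, both arrays average 499.9 units. No detection calls or scanner values were used here, and the number of arrays limits the precision. Of 22690 probe sets, 64 were controls, 20393 had 1 gene in the annotation, 691 had several and 1606 were unlisted; 20364 symbols were looked up by Entrez identifier in a RefSeq table of GRCm38.p6. Signals were floored at 134.7 units, and the log2 difference is eosinophils minus dendritic cells. A gene was represented by its probe set of highest mean log2 signal. The pooled SD came from 1766 genes with 4402 probe sets that were measured on each array. The members, the 9 pathway lists and the 11 marker lists were chosen with earlier results of these data known. Named were every member probe set, up to 5 genes per pathway list with the largest difference and all pathway list genes 4-fold apart, and the 2 nearest genes of each member 4-fold apart. Other list genes named (Csf1r, Egfr, Kdr, Erbb4, Cd4, Il34, Il6, Il11, Mbp and the cell type markers) were added after their values were seen. The counting step was tested on simulated data with differences planted only in probe sets far above the floor. The simulated noise was also smaller than the pooled SD. The test therefore does not show how differences near the floor are counted. Python 3.11.15, pandas 2.3.3, numpy 2.4.6 and statsmodels 0.14.6 were used. Alternatives were 5 scalings, 3 floors, 2 ways to stand for a gene, and counting at 2-fold or 10-fold.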

Additional observations from a re-analysis of the deposited data

How the results depend on the processing

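No paired analysis was possible because each group has 1 array. The 18 hybridisation spike probe sets were 2.06-fold brighter on the eosinophil array. Centring on them lowered every log2 difference by 1.04 before the floor, moved the median of all measured probe sets to -0.63 from 0.14, and turned the whole-array counts at 4-fold into 228 in eosinophils and 1906 in dendritic cells, against 661 and 703 as deposited; median centring gave 488 and 955. Under the 5 scalings (array medians, quantiles, loess, spike controls, housekeeping genes), every one of the 13 member probe sets that stayed measured, between 11 and 13 of them, kept its direction. Of the other list genes in the text and figures, Clcf1, Igfbp4, Lifr, Nrp2, Adam9, Frmd8, Pcsk7 and Spred2 turned towards dendritic cells on the spike scale. Ctf1, Csf3, Bdnf, Fgf1, Fgf7, Hgf, Igf1r, Pdgfrb, Igfbp5, Spry1 and Spry4 were no longer measured on that scale.

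The member counts were small, and those on the eosinophil side moved with most settings. The 2 probe sets and 2 genes at least 4-fold brighter in eosinophils became 1 and 1 under each of the 5 scalings and at 10-fold. The probe sets became 6 with the floor at the 25th percentile, 8 with no floor beyond 1 unit and 5 at 2-fold, and the genes 0 with the mean of all probe sets. The 0 probe sets and 0 genes at least 4-fold brighter in dendritic cells became 1 and 1 with the 25th percentile floor, 3 and 1 with no floor, and 1 and 1 at 2-fold. The median log2 difference of the measured genes, 1.12, was 0.34 on the spike scale. Fewer or more probe sets enter as the floor moves; otherwise the cause was not tested. Under the 10 settings that give a value, Csf1 ranged from 1.13 to 4.40, Hbegf from 0.77 to 1.81, Il16 from 1.002 to 2.04, Lif from -1.60 to -0.37 and Vegfa from -2.48 to -0.34, each in 1 direction. Igf1 ranged from -0.16 to 0.67 over the 4 settings that gave it a value. Signals near 134.7 units limit what these arrays can show for Vegfa, Lif, Pdgfb, Igf1 and Tgfa.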
